A study of Mus musculus with 8 samples.

Results

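The 10 genes described here belong to branched-chain amino acid breakdown. They were chosen by name, and all 10 were found among the 30387 genes of the deposited table of normalized counts. They are Bcat2, Bckdha, Bckdhb, Dbt, Dld, Bckdk, Ivd, Mccc1, Hibch and Pcca, all protein-coding, and their positions below are those of the deposited table on GRCm38. The RNA came from white adipocytes isolated from the epididymal fat of mice. Ad-Yap/Taz-KO mice (KO below) carried Adipoq-Cre with floxed Yap and Taz alleles, Yap fl/fl and Taz fl/fl, so that both genes were deleted by a Cre driven by the adiponectin promoter from the time adipocytes form, and the controls were wild-type littermates (WT). Mice of both genotypes were fed normal chow, the standard diet (SD), or a high-fat diet (HFD) for 4 weeks, from week 5 of age in the description of the data set and from a later age in the study's methods. This gave 4 groups with 2 libraries each, and the study counts 2 mice in each group.

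Leucine, isoleucine and valine are broken down in mitochondria by shared first steps and separate later ones. Bcat2, the mitochondrial branched-chain aminotransferase, moves their amino group to another acid, and the branched-chain keto acid dehydrogenase (BCKDH) complex then removes carbon dioxide irreversibly. Bckdha and Bckdhb encode the alpha and beta subunits of its E1 decarboxylase, Dbt its E2 core and Dld the E3 dihydrolipoamide dehydrogenase, which also serves the pyruvate and 2-oxoglutarate dehydrogenases and the glycine cleavage system. Bckdk encodes the kinase that switches the complex off. Ivd (isovaleryl-CoA dehydrogenase) and Mccc1 (a subunit of methylcrotonyl-CoA carboxylase) act on leucine carbon, Hibch (3-hydroxyisobutyryl-CoA hydrolase) acts on valine carbon, and Pcca (a subunit of propionyl-CoA carboxylase) takes propionyl-CoA from valine and isoleucine towards the citrate cycle. Fat cells are known to burn branched-chain amino acids as they mature and to use the carbon for fatty acid synthesis.

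The deposited values are read counts divided by 1 factor per library and rounded. The libraries held an estimated 13.99 to 22.32 M reads on genes. Wwtr1, which encodes TAZ, was lower in KO on both diets (log2 fold change -1.56, adjusted p = 3.11e-05 on HFD, and -1.24, adjusted p = 0.000969 on SD). For Yap1 the difference was -0.71 on SD (adjusted p = 0.0238) and -0.42 on HFD (adjusted p = 0.0591). The adipocyte markers Adipoq and Plin1 stood at 12435 or more in every library. The 2 WT HFD libraries lay close together at high counts. For genes of 1000 to 5000 reads their squared difference was 5.87 times that of counting error, against 27.8 to 72.8 times in the other groups, while for genes of 5 to 20 reads it was 4.73 times, within the 4.61 to 6.37 of the others. For calls that rest on them, the text also says whether they held with the mean of both in their place. Wwtr1 did on HFD (adjusted p = 0.00182). The log2 fold changes below come from 1 fit of limma over 18800 genes, those whose mean over the libraries reached 5, and all 10 enzymes were among them. To be called, a gene needed an adjusted p no higher than 0.05 together with a change of 0.59 or more on the log2 scale (1.5-fold), up or down.

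On HFD, 7 of the 10 enzymes fell in KO adipocytes and none rose. Those called were Ivd, Pcca, Hibch, Bckdha, Dbt, Mccc1 and Dld, with KO levels between 0.435 and 0.62 of WT. Of all genes tested, 15.1% were called lower and 17.1% higher in this comparison. The median log2 fold change of the 10 enzymes was -0.84, against 0.0946 over all genes tested, and all 10 estimates lay below 0. Markers of adipocytes fell in the same libraries with a median of -1.4258, and in bulk RNA fewer cells of a type and less RNA per cell cannot be told apart. On SD no enzyme was called, where 4.71% of all genes were called in either direction, and 7 of the 10 estimates lay above 0 with a median of 0.1187. At an unadjusted p under 0.05, 1 of the 10 enzymes differed on SD, where 3200 of all 18800 genes did, and 7 on HFD, where 8369 did. Exact permutation of 2 against 2 libraries cannot give a two-sided p below 0.333, so only the fit across all genes gives tests.

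**Figure D1:**
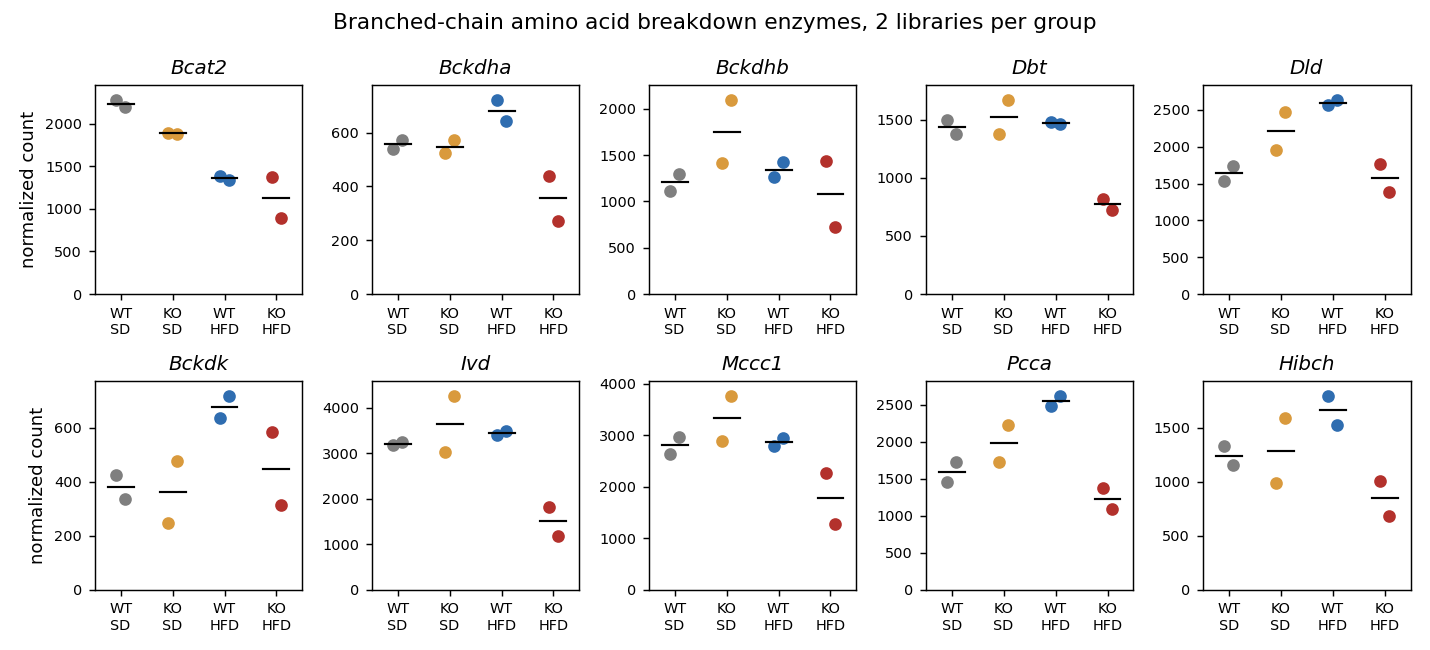
Normalized count (y axis, from 0) of the 10 enzymes in the 8 libraries, with 1 panel per gene. Points are single libraries, the x axis gives genotype and diet, and the black line is the mean of the pair. For Bckdha, Dbt, Ivd, Mccc1 and Pcca both KO HFD libraries lay below the 6 others, with Dbt at 816 and 726.

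Bcat2 (ENSMUSG00000030826, chr7:45570153-45589711, + strand) carries out the first, reversible step. Its values were 2271 and 2189 in WT on SD, 1894 and 1874 in KO on SD, 1388 and 1339 in WT on HFD, and 1373 and 891 in KO on HFD. Both SD groups lay above all 4 HFD libraries, and on HFD one KO library lay between the WT libraries. In WT on HFD, Bcat2 fell by 0.71 on the log2 scale (SE 0.19, adjusted p = 0.0213), and the difference in KO was not called (-0.77, adjusted p = 0.0737). The genotypes differed by -0.30 on HFD (adjusted p = 0.237) and by -0.24 on SD (adjusted p = 0.572). Bcat2 was the 1 enzyme of the 10 that was lower on HFD in WT, where 9.22% of all genes were called lower. With both WT HFD libraries averaged this call was lost, as it was when any 1 of the 4 WT libraries was left out.

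Bckdha (ENSMUSG00000060376, chr7:25629946-25658981, - strand), the E1 alpha subunit and the target of the kinase, stood at 541 and 574 in WT SD, 526 and 571 in KO SD, 720 and 644 in WT HFD, and 439 and 273 in KO HFD. Only the KO HFD pair lay below the range of the other 6 libraries. The difference between genotypes on HFD was -0.97 (SE 0.22, adjusted p = 0.00493), which put KO 47.8% below WT, and on SD it was -0.02 (adjusted p = 0.973). Of the exon bases of Bckdha, 61.7% overlap B3gnt8 on the opposite strand, and the sources used here do not say whether reads were counted by strand. B3gnt8 itself stood at 18 to 63 in the 8 libraries.

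Bckdhb (ENSMUSG00000032263, chr9:83925145-84124240, + strand), the E1 beta subunit, was not called in any comparison. It had 1110 and 1297 in WT SD, 1416 and 2089 in KO SD, 1258 and 1428 in WT HFD, and 1434 and 721 in KO HFD. One KO HFD library was the highest of the 4 on HFD and the other the lowest of all 8. The differences between genotypes (on HFD -0.40, SE 0.27, adjusted p = 0.285, and on SD 0.52, adjusted p = 0.367) were of opposite sign, and without the second KO HFD library the estimate on HFD turned to 0.10.

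Dbt (ENSMUSG00000000340, chr3:116513070-116549981, + strand), the E2 core that carries the acyl group, gave 1497 and 1378 in WT SD, 1373 and 1666 in KO SD, 1481 and 1462 in WT HFD, and 816 and 726 in KO HFD. The other 6 libraries lay close together and the KO HFD pair stood clearly below them. KO was lower than WT on HFD by -0.93 (SE 0.16, adjusted p = 0.00079) and differed by 0.07 on SD (adjusted p = 0.865). In KO, Dbt fell by 0.97 from SD to HFD (adjusted p = 0.016), while in WT the diets differed by 0.03.

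Dld (ENSMUSG00000020664, chr12:31331564-31351437, - strand), the shared E3, rose with HFD in WT. Its levels were 1534 and 1741 in WT SD, 1955 and 2472 in KO SD, 2567 and 2630 in WT HFD, and 1763 and 1383 in KO HFD. WT was higher on HFD by 0.67 (adjusted p = 0.019), or by 0.26 with libraries scaled to the same total (adjusted p = 0.232). KO on HFD lay below WT on HFD by -0.73 (SE 0.17, adjusted p = 0.0058). The KO HFD values overlapped those of WT on SD. Both calls were lost with the WT HFD libraries averaged (adjusted p = 0.143 and 0.0589).

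Bckdk (ENSMUSG00000030802, chr7:127904082-127910221, + strand), which encodes the inhibiting kinase, had the largest standard error of the 10. It stood at 424 and 337 in WT SD, 248 and 476 in KO SD, 636 and 716 in WT HFD, and 582 and 312 in KO HFD. The WT HFD pair was the highest, but neither the diet in WT (0.83, SE 0.32, adjusted p = 0.0858) nor the genotype on HFD (-0.66, adjusted p = 0.131) was called. Of the enzymes, Bckdk was the least like the others over the 8 libraries (r = 0.3885 with the mean of the other 9), followed by Bcat2 (r = 0.5031), as a description over libraries that share their groups.

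Ivd (ENSMUSG00000027332, chr2:118861954-118882909, + strand) catalyses the first step after the BCKDH complex in leucine breakdown and had the largest fall of the 10. It held 3177 and 3246 in WT SD, 3038 and 4255 in KO SD, 3405 and 3489 in WT HFD, and 1828 and 1174 in KO HFD. Every library outside KO HFD stood at 3038 or more and both inside at 1828 or less. KO was lower on HFD by -1.23 (SE 0.21, adjusted p = 0.000745), or 56.5%, and in KO it fell by 1.29 from SD to HFD (adjusted p = 0.0151) while the diets differed by 0.10 in WT. Dbt and Ivd were the 2 enzymes called lower on HFD in KO, where 0.691% of all genes were. Their estimates do not use the WT HFD libraries and stayed at -0.97 and -1.29 with those averaged. Only the spread, shared with all groups in the fit, and the adjustment changed, and both calls were lost.

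Mccc1 (ENSMUSG00000027709, chr3:35959312-36000678, - strand), which carries the biotin of methylcrotonyl-CoA carboxylase, gave 2635 and 2968 in WT SD, 2895 and 3755 in KO SD, 2780 and 2941 in WT HFD, and 2263 and 1285 in KO HFD. The KO HFD pair was again the lowest, with a wide gap inside it. The fall on HFD was -0.75 (SE 0.23, adjusted p = 0.0233). It was lost with the WT HFD libraries averaged (adjusted p = 0.125) and without the second KO HFD library, where the estimate was -0.34.

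Hibch (ENSMUSG00000041426, chr1:52844929-52920986, + strand), which releases free 3-hydroxyisobutyrate in valine breakdown, had 1329 and 1154 in WT SD, 988 and 1586 in KO SD, 1791 and 1527 in WT HFD, and 1009 and 685 in KO HFD. The upper KO HFD library lay just above the lower KO SD library, and both lay below the WT HFD pair. KO was 48.9% below WT on HFD (-0.99, SE 0.24, adjusted p = 0.00622), a call that was lost with the WT HFD libraries averaged (adjusted p = 0.0525).

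Pcca (ENSMUSG00000041650, chr14:122534324-122891100, + strand), at the entry of the propionate arm, stood at 1455 and 1729 in WT SD, 1732 and 2226 in KO SD, 2486 and 2618 in WT HFD, and 1376 and 1086 in KO HFD. WT HFD was the highest group and KO HFD the lowest, with no overlap between them. The genotypes differed on HFD by -1.06 (SE 0.18, adjusted p = 0.000693) and on SD by 0.31 (adjusted p = 0.418). In WT, Pcca was higher on HFD by 0.69 (adjusted p = 0.0196), or by 0.27 with libraries scaled to the same total (adjusted p = 0.222). In that comparison of diets, the 12 adipocyte markers had a median of 0.6078, with 11 above 0. Of 12 macrophage markers, 9 were called lower and none higher. The part of these markers in the difference was not tested. Dld and Pcca were the 2 enzymes called higher on HFD in WT, against 8.74% of all genes, and neither was called with the WT HFD libraries averaged.

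**Figure D2:**
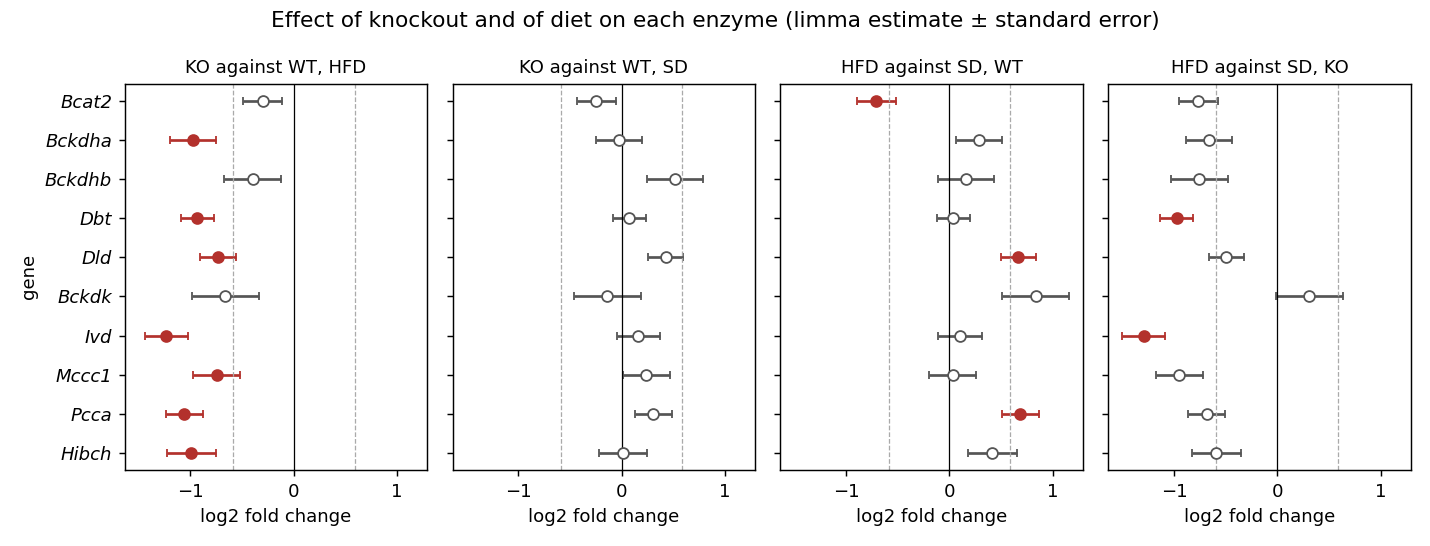
Log2 fold change (x axis) of each enzyme (y axis) in 4 comparisons, with bars for the standard error and dashed lines at 0.59 in either direction. Filled red points were called: 7 lower in KO on HFD, none in KO on SD, 3 between diets in WT and 2 between diets in KO.

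The difference between the knockout's effect on HFD and on SD was tested directly as the interaction of genotype and diet. It was below 0 for all 10 enzymes, with a median of -0.99, and was called for 4 of them, Ivd (-1.40), Pcca (-1.37), Dld (-1.16) and Dbt (-1.01), where 8.73% of all genes were called in this direction. Bckdha, Mccc1 and Hibch stood at adjusted p values of 0.0548, 0.0527 and 0.0548. None of the 4 was called with the WT HFD libraries averaged, where the adjusted p values ran from 0.0503 for Pcca to 0.0743 for Dbt. Bcat2 had an interaction of -0.06 (adjusted p = 0.9). Cell type markers moved in the interaction too. Of 12 adipocyte markers, all 12 lay below 0 and 9 were called lower, with a median of -1.3417. Of 12 macrophage markers, 9 were called higher and none lower. The part of these markers in the interaction of the enzymes was not tested.

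Of the 7 calls on HFD, 4 were kept with the WT HFD libraries averaged (Ivd, Pcca, Dbt and Bckdha). The second KO HFD library was the lowest of the 8 for 9 of the 10 enzymes, Bckdk being the exception, and without it 4 were called (Ivd, Pcca, Dbt and Bckdha), while without the first KO HFD library all 10 were. Without the first WT HFD library 4 were called (Ivd, Pcca, Dbt and Dld), and without the second 5 (these except Dld, with Bckdha and Hibch). When every library was scaled to the same total, the median of all genes moved from 0.095 to 0.467 and that of the enzymes from -0.84 to -0.454. Then 3 were called (Ivd, Pcca and Hibch), and Bcat2 turned to 0.08. Scaling by 1 factor per library moves all genes by nearly the same amount. The place of the enzymes against the median of all genes could therefore hardly change.

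Levels per kilobase used the merged exons of all transcripts of a gene in GENCODE vM21, 1805 bases for Bckdhb and 10952 for Mccc1. The order of the enzymes depends on these lengths. In WT on SD, Bckdhb was highest at 615 and 718.6 per kb. Bcat2 (582.3 and 561.3) and Ivd (577.1 and 589.6) followed and overlapped each other. Dbt (447.1 and 411.6) and Dld (416.5 and 472.7) overlapped too, as did Bckdha (284.9 and 302.3) and Pcca (279.3 and 331.9). Mccc1 (240.6 and 271), Hibch (219.3 and 190.5) and Bckdk (114.7 and 91.2) came last, each apart from its neighbours. In KO on HFD, Bckdhb still had the highest pair (794.5 and 399.4), which overlapped that of Dld (478.7 and 375.5), and Ivd stood at 332.1 and 213.3.

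Of the 10 enzymes, 9 had a promoter window in the RefSeq table for GRCm38.p6, of 250 bases before the start site. CCAAT, the letters bound by NF-Y, was searched on both strands after these promoters had been read, with overlaps counted, and 6 of the 9 windows held it, where 33.8% of 32851 windows over all genes did. Ivd had 4 matches, a number reached in 0.84% of all windows, and Mccc1 had 3 (2.79% of windows had at least 3). GGAATG, the letters bound by TEAD, the DNA-binding partners of YAP and TAZ, was in 0 of the 9 and in 12.6% of all windows. AAGGTCA, bound by oestrogen-related receptors, was in 0 of the 9 and in 4.08%. The windows of Ivd and Mccc1, the ones richest in CCAAT, of Pcca with 1 match, and of Bcat2 with none, are shown 5′ to 3′ on the gene's strand, up to the start of the gene in GENCODE, with CCAAT or its reverse complement in capitals. Windows with and without a match were found among called and uncalled enzymes alike. Bckdha and Hibch had 0 and were called lower, while Bckdhb with 2 and Bckdk with 1 were not called. Of the 250 bases in their windows, only 30 for Bckdha and 141 for Hibch lie before the start of the gene in GENCODE. The fourth match of Ivd lies past the start of its gene in GENCODE and is not shown.
Ivd, chr2:118861744-118861953 (+ strand): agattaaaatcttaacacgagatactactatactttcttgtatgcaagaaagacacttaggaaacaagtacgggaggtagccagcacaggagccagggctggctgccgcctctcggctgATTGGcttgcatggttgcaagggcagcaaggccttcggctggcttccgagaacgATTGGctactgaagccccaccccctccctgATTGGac
Mccc1, chr3:36000679-36000928 (- strand): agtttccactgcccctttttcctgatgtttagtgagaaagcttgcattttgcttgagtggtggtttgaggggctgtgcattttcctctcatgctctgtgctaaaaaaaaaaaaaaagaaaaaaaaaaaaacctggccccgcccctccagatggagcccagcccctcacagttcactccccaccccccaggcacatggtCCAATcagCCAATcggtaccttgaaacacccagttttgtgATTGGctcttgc
Pcca, chr14:122534078-122534323 (+ strand): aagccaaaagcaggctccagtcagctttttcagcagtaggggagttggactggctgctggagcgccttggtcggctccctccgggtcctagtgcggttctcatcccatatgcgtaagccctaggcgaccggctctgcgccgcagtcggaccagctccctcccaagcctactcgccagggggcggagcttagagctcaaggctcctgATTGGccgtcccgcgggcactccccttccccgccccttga
Bcat2, chr7:45569903-45570152 (+ strand): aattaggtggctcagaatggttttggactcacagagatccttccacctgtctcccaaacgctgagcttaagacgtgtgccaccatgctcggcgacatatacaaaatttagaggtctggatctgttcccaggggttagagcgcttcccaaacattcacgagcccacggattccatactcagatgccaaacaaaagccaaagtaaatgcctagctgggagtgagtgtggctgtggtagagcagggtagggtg

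The rest of the pathway was described from a list of 21 genes. On HFD, 16 of the 21 were called lower in KO and none higher, with a median of -0.869, and on SD none was called. With the WT HFD libraries averaged 6 of the 21 were called lower (Klf15, Pccb, Acadsb, Acat1, Aldh6a1 and Mut), without the second KO HFD library 7, without the first WT HFD library 7, without the second WT HFD library 10 and with the same total 7. Klf15, a transcription factor known to drive branched-chain amino acid breakdown, went from 759 and 699 in WT to 240 and 180 in KO on HFD (-1.80, SE 0.22, adjusted p = 6.87e-05, and at most 0.00309 in the other fits of all 4 groups) and differed by -0.32 on SD (adjusted p = 0.522). Ppm1k, the phosphatase that opposes the kinase, stood at 339 and 249 in WT and 187 and 211 in KO on HFD and was not called (-0.55, adjusted p = 0.0858). The partner subunits fell with theirs: Mccc2 from 1635 and 1492 to 1042 and 666 (-0.91), and Pccb from 3192 and 3031 to 2018 and 1129 (-1.04).

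Slc25a44, the mitochondrial carrier of branched-chain amino acids, was lower by -0.88. In the leucine arm Auh (-0.84) and the ketone body enzyme Oxct1 (-0.87) were lower. In the isoleucine and valine arms Acadsb (-1.08), Echs1 (-0.99), Hibadh (-0.81), Hsd17b10 (-0.62), Acat1 (-0.96) and Aldh6a1 (-1.03) were called lower and Acad8 was not (-0.67). In the propionate arm Mcee (-0.81) and Mut (-1.20), methylmalonyl-CoA epimerase and mutase, and the cobalamin genes Mmab (-1.33) and Mmadhc (-0.85) were called lower, and Mmaa was not (-0.80). Bcat1, the cytosolic aminotransferase, had 111 and 136 in WT and 173 and 178 in KO and was not called (0.51). In WT, 5 of the 21 were called higher on HFD, namely Auh, Mut, Oxct1, Mmadhc and Slc25a44. In KO, Acadsb and Aldh6a1 (adjusted p = 0.0497) were called lower on HFD. Of all genes, 8.74% and 0.691% were called in these directions. None of these 7 calls between diets held with the averaged libraries. In the larger list of valine, leucine and isoleucine degradation carried in the deposited annotation, 29 of 49 tested genes were lower and 3 higher in KO on HFD, and 9 of the 10 enzymes are on it. With the averaged libraries 14 of the 49 were lower and 0 higher.

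**Figure D3:**
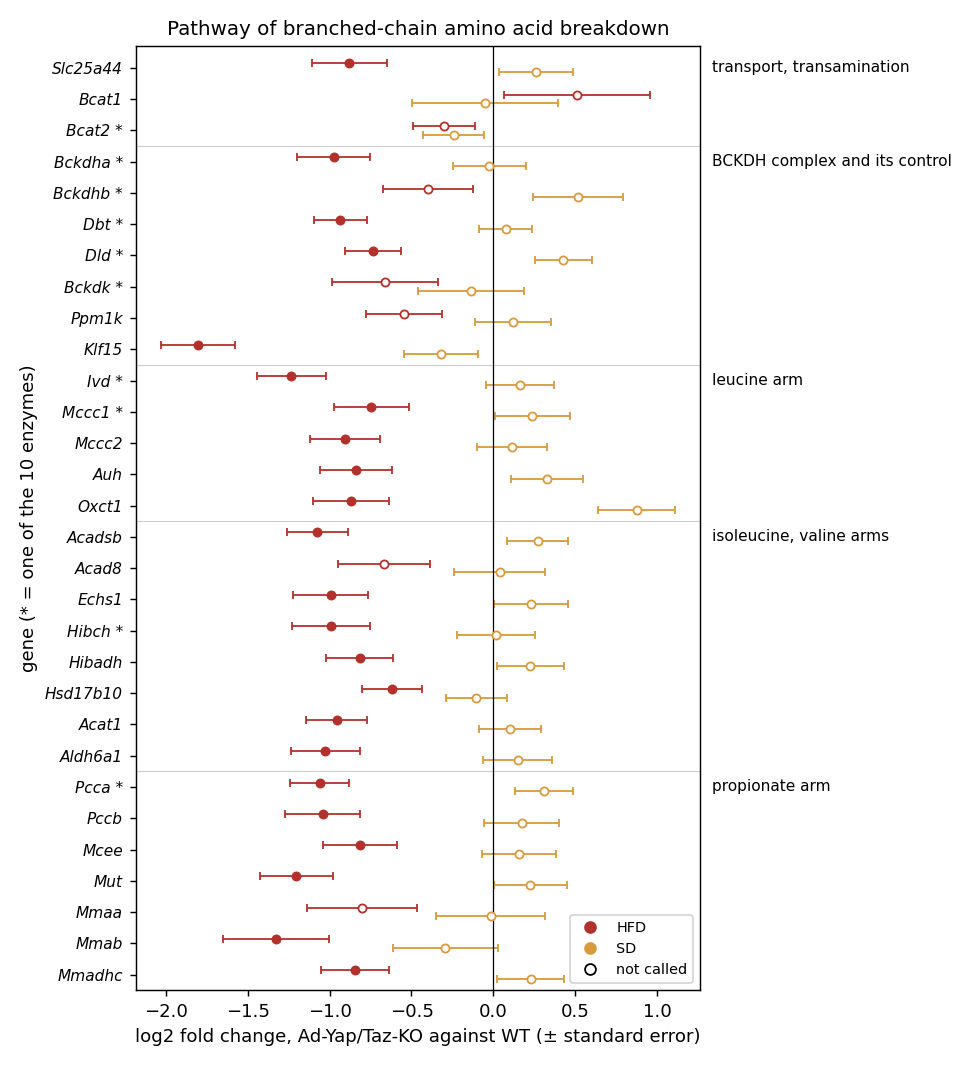
Log2 fold change of KO against WT (x axis, bars are the standard error) on HFD (red) and SD (orange) for the 10 enzymes (marked *) and other genes of the pathway (y axis), in its order. Open points were not called. On HFD 7 of the 10 enzymes and 16 of the other genes were called lower, and on SD none of either was.

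Dld serves other complexes, whose genes were called in both directions. Of 14 genes of the pyruvate, 2-oxoglutarate and glycine cleavage systems and their kinases and phosphatases, 6 were lower (Pdha1, Pdhx, Ogdh, Pdk3, Pdp2 and Gcsh) and 2 higher (Pdk4 and Gldc) in KO on HFD. Gldc was low, at 12 and 7 in WT HFD and 102 and 93 in KO HFD. Pdk4, a kinase that inhibits pyruvate dehydrogenase, rose from 1950 and 1982 to 5406 and 4630 (1.35, adjusted p = 2.35e-05, and 0.00165 with the averaged libraries). Of 14 citrate cycle genes 5 were lower and none higher, with a median of -0.4702, and the median of the former list was -0.5298. With the averaged libraries 4 of the former (all but Pdhx and Ogdh) were still lower, Pdk4 and Gldc still higher, and 0 of the citrate cycle genes lower. The lists were not tested against each other.

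Markers of cell types moved in the same libraries. Of 12 adipocyte markers, 11 fell in KO on HFD (median -1.4258, Fabp4 not called at -0.32) and none was called on SD. Their summed level was 430604 to 439234 in WT HFD and 215812 and 115151 in KO HFD, the second KO HFD library being the lower one as it was for the enzymes. Adipoq (adiponectin) went from 54830 and 53308 to 27322 and 13284. Of 12 macrophage markers, 11 (all but Cd163) were higher in KO on HFD (summed level 3726 to 3827 in WT, 49232 to 62903 in KO) and also on SD (6147 to 6458 in WT, 29374 to 45609 in KO), where no enzyme was called. Among the other lists, 2 of 7 endothelial (Pecam1, Egfl7), 5 of 8 fibroblast and progenitor (among them Pdgfra and Col1a1), 1 of 6 mesothelial (Wt1) and 2 of the 5 lymphocyte markers that were tested (Cd4, Cd79a) were higher in KO on HFD, and 1 mesothelial marker (Msln) was lower. The endothelial sum was 14229 and 14656 in WT HFD, and 18509 and 28391 in KO HFD. The fibroblast and progenitor sum was 25305 and 25502 in WT HFD, and 73527 and 79486 in KO HFD. The summed lymphocyte level was 45 and 41 in WT HFD and 144 and 292 in KO HFD, and Cd3d was at 0 in all but the KO HFD libraries. With the averaged libraries the calls on HFD were 10 adipocyte markers lower and 11 macrophage, 1 endothelial (Egfl7), 5 fibroblast and progenitor, 1 mesothelial (Wt1) and 2 lymphocyte markers higher, and Msln was not called. The part of these markers in the fall of the enzymes was not tested.

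**Figure D4:**
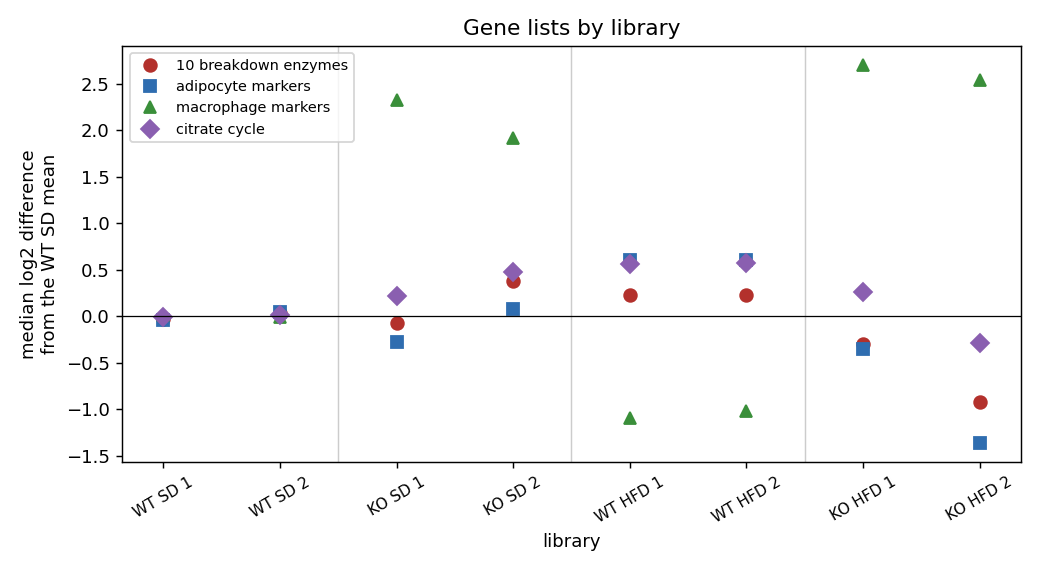
Median log2 difference from the WT SD mean (y axis) in each library (x axis) for the 10 enzymes, adipocyte markers, macrophage markers and citrate cycle genes. The enzymes stood at 0.2268 and 0.2297 in WT HFD and at -0.3003 and -0.9183 in KO HFD, and the adipocyte markers at 0.6 and 0.6048, then -0.3559 and -1.3629.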

How the data were processed

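Isolated adipocyte RNA was depleted of ribosomal RNA, made into libraries with a stranded kit and sequenced single-end. The authors trimmed reads with Reaper, aligned them with STAR 2.5.2b to GRCm38 (mm10) and counted reads at least partly in exons with featureCounts 1.5.1, leaving out reads of several genes or loci. The strand setting is not given in the sources used here. The deposited values, a normalized score per gene, are counts that the authors divided by 1 DESeq2 1.14.1 size factor per library and rounded. No count test was used on them. Depth was estimated from the value of 1 read (0.7953 to 1.135), which was checked on simulated data. Columns on function in the deposited table gave 1 pathway list.

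limma 3.58.1 (R 4.3.3; lmFit, contrasts.fit, eBayes with trend) was fitted to log2 of the value plus 1 for 18800 genes, with 4 group means and Benjamini-Hochberg adjustment, and was tested on simulated data. Fold changes understate the change of low genes. The unadjusted p-values have 4 residual and 8.59 prior degrees of freedom. The 10 enzymes and all lists were chosen with earlier results of these data known. Named were the 10 enzymes, Klf15, Ppm1k, Mccc2, Pccb, called genes of the pathway list, called defining markers, Yap1, Wwtr1 and the 5 genes most like the enzymes; other genes were named after their values were seen. The list of 21 pathway genes includes 1 gene that is not reported here. Alternatives were pseudocounts of 0.1 and 8, other filters and scalings, robust eBayes, a fit without the other groups, a replicate block, no fold limit, the WT HFD libraries as 1 sample and leaving out each library. Promoters are RefSeq's, overlaps and lengths GENCODE's. Python 3.11.15, pandas 2.3.3 and matplotlib 3.10.9 were used.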

Additional observations from a re-analysis of the deposited data

Results flagged for a closer look

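The effect of the knockout on HFD differed from that on SD, by limma's test of the interaction, for 4 enzymes, where 8.73% of all genes were called in this direction. The difference was -1.01 for Dbt (SE 0.23, adjusted p = 0.0131), -1.16 for Dld (SE 0.24, adjusted p = 0.0102), -1.40 for Ivd (SE 0.30, adjusted p = 0.0106) and -1.37 for Pcca (SE 0.25, adjusted p = 0.00636). For Dbt and Ivd the diets differed by 0.03 and 0.10 in WT, whereas for Dld and Pcca the WT level was called higher on HFD as well. In the same test 9 of 12 adipocyte markers were called lower (median -1.3417) and 9 of 12 macrophage markers higher. Their part in the result for the enzymes was not tested. The 4 interaction calls were all lost when the WT HFD libraries were averaged (adjusted p = 0.0503 to 0.0743) and without the first WT SD library. Scaling to the same total ended the call for Dbt (-0.58, adjusted p = 0.0769), and no filter ended those for Dld and Ivd. The calls for Dld and Pcca between diets in WT were lost with no filter, with all 3 other scalings and with the averaged libraries. They were also lost when any 1 of the 4 WT libraries was left out. With 1 library left out, the estimates ran from 0.58 to 0.76 for Dld and from 0.56 to 0.81 for Pcca.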

How the results depend on the processing

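The 7 calls on HFD became 3 with libraries scaled to the same total and 4 when both WT HFD libraries were averaged. They were 6 with no filter and 6 in a fit of only the 2 groups (Mccc1 lost in each), and 5 with quantile normalization (Mccc1 and Dld lost). The count ran from 4 to 10 with 1 library left out (4 without the first WT HFD or the second KO HFD library, 10 without the first KO HFD library). On SD there were 0 calls under every alternative (0 to 0 with 1 library left out). Calls higher on HFD in WT went from 2 to 0 with no filter, with the same total, with upper-quartile scaling, with quantile normalization and with the averaged libraries (0 to 3 with 1 library left out), and calls lower went from 1 to 0 with no filter and with the averaged libraries (0 to 1). The 2 calls in KO between diets became 0 with no filter, in a fit of only the 2 groups and with the averaged libraries (0 to 7 with 1 library left out, 7 without the first KO HFD library and 0 without the second KO SD, second KO HFD or either WT HFD library). The 4 interaction calls became 7 with a pseudocount of 8, 2 with no filter, 3 with the same total (Dbt lost, adjusted p = 0.0769), 5 with a minimum mean of 50 and 0 with the averaged libraries (0 to 8 with 1 library left out, 0 without the first WT SD library and 8 without the first KO HFD library). With no filter more genes were tested, and with averaging there were fewer samples; for the other settings the cause was not tested.

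Some estimates that were not called changed sign. With the same total these were Bcat2 on HFD (0.08) and in the interaction (0.37), Hibch on SD (-0.03), and between diets in WT Bckdha (-0.12), Bckdhb (-0.25), Dbt (-0.38), Ivd (-0.31) and Mccc1 (-0.38). With upper-quartile scaling they were Hibch on SD (-0.03), Dbt (-0.1), Ivd (-0.03) and Mccc1 (-0.1) between diets in WT, and Bcat2 in the interaction (0.07). With quantile normalization they were Hibch on SD (-0.05), Bckdhb (-0.04), Dbt (-0.17), Ivd (-0.17) and Mccc1 (-0.23) between diets in WT, and Bcat2 in the interaction (0.15). With 1 library left out, the range crossed 0 on HFD for Bcat2 (-0.61 to 0.01) and Bckdhb (-0.89 to 0.1), on SD for Bckdha (-0.08 to 0.04), Bckdk (-0.61 to 0.33), Dbt (-0.06 to 0.21), Ivd (-0.08 to 0.41) and Hibch (-0.33 to 0.36), between diets for Dbt (-0.02 to 0.09) and Mccc1 (-0.05 to 0.12) in WT and Bckdk in KO (-0.16 to 0.78), and in the interaction for Bcat2 (-0.37 to 0.25).

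The labels number the replicates in each group but tie no number to a shared litter or day, and the correlations of same-numbered libraries' deviations ran from -0.3 to 0.108. With the replicate block, the counts of called enzymes were 7 on HFD, 0 on SD, 2 and 1 in WT, 2 in KO and 4 in the interaction, as without it.

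Over all genes on HFD, same-total scaling gave 4617 higher and 1367 lower calls, against 3213 and 2840 in the values as deposited, and averaging the WT HFD libraries gave 3445 calls, against 6053. The alternatives for the gene lists other than the 10 enzymes were chosen after seeing the data. Over all the alternatives that fitted the 4 groups, adipocyte markers called lower on HFD ran from 9 (quantile normalization) to 12 (without the first KO HFD library), and macrophage markers called higher from 11 to 12. With 2 libraries a group, a difference that was not called is not shown to be absent.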

Other observations

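The 5 genes whose log2 values over the 8 libraries were most like the mean of the 10 enzymes, among 12083 genes whose mean reached 50, were Mccc2 (r = 0.9936), Aldh1l1 (r = 0.9922), Pde3b (r = 0.9903), Vps13d (r = 0.9901) and Gpat4 (r = 0.9884). These are descriptions over libraries that share groups and depth. Mccc2 is the partner subunit of Mccc1. Aldh1l1, which encodes the cytosolic 10-formyltetrahydrofolate dehydrogenase, held 2592 and 2764 in WT SD, 2784 and 3920 in KO SD, 3839 and 3756 in WT HFD, and 2281 and 1043 in KO HFD. Pde3b, the phosphodiesterase through which insulin restrains lipolysis, ran from 6696 in the second KO HFD library to 20088 in the second KO SD library. Gpat4, a glycerol-3-phosphate acyltransferase, held 2711 and 2773 in WT HFD and 2106 and 1561 in KO HFD. For each of these 5 genes the second KO HFD library was the lowest and the second KO SD library was above the first.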
